A study of Mus musculus with 14 samples.

Results

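The mevalonate pathway turns cytosolic acetyl-CoA into squalene, the linear precursor of cholesterol, and 8 enzyme genes were chosen for it by name: Acat2, Hmgcs1, Mvk, Pmvk, Mvd, Idi1, Fdps and Fdft1. A named probe set was found for 7 of the 8, each with 1 probe set, among 22206 tested probe sets and 19505 gene symbols, and Acat2 was not analysed here. RNA of adult male wild-type C57Bl6 mice was hybridised to 14 Clariom S mouse arrays. The groups were total liver on CDAA (4 arrays), total liver on CSAA (4 arrays), primary hepatocytes on CDAA (3 arrays) and primary hepatocytes on CSAA (3 arrays). All mice were fed their diet for 2 weeks. CSAA, a choline-supplemented diet with defined amino acids, was the control, and CDAA was its choline-deficient counterpart to which cholesterol, glucose and fructose had been added, so that the CDAA mice also ate cholesterol; the series title calls this diet CDAA-HSHC. Hepatocytes were isolated with collagenase, and total liver was the saline-perfused caudal lobe. The series calls the preparations independent without saying how many mice went into each.

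In the pathway, Acat2 joins acetyl-CoA units, Hmgcs1 makes HMG-CoA, a reductase turns this into mevalonate, and Mvk, Pmvk and Mvd phosphorylate and decarboxylate mevalonate to isopentenyl diphosphate. Idi1 interconverts isopentenyl and dimethylallyl diphosphate, Fdps condenses them to farnesyl diphosphate, and Fdft1, squalene synthase, commits farnesyl diphosphate to sterols. The liver is a main site of cholesterol synthesis, and its sterol genes are known targets of the transcription factor SREBP2, which is held in the endoplasmic reticulum by SCAP and INSIG proteins while sterols are plentiful and is cleaved and sent to the nucleus when they are scarce. At their promoters SREBP2 is known to act together with NF-Y, which binds CCAAT, and with SP1.

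The promoters are shown because the members moved together with diet, and to let their shared CCAAT letters be seen. RefSeq (GRCm38.p6) held a promoter for 5 of the 7 measured members (Hmgcs1, Mvk, Mvd, Idi1 and Pmvk), which was searched over 250 bases before the transcription start, on both strands. The last 200 of these bases are printed 5′ to 3′ on the gene's strand for 4 of them. Pmvk, the member with the fewest CCAAT matches, is not printed. Capitals mark CCAAT or its reverse complement ATTGG and, in Hmgcs1, the sterol element TCACNCCAC. Hmgcs1 lies at chr13:119690151-119690350 (plus strand), Mvk at chr5:114444069-114444268 (plus), Mvd at chr8:122443423-122443622 (minus) and Idi1 at chr13:8885406-8885605 (plus).
Hmgcs1: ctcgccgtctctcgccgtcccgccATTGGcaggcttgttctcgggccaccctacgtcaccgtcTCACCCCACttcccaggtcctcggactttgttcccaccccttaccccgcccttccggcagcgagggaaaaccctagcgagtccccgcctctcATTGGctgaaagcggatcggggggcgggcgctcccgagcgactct
Mvk: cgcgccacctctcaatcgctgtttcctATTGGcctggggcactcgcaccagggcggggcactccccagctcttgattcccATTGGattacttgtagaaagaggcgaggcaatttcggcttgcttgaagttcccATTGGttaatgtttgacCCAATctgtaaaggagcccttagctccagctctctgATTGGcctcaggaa
Mvd: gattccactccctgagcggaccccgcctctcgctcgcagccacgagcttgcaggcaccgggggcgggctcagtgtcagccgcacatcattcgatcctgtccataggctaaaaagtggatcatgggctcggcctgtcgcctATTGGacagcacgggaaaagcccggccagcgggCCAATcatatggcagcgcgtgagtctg
Idi1: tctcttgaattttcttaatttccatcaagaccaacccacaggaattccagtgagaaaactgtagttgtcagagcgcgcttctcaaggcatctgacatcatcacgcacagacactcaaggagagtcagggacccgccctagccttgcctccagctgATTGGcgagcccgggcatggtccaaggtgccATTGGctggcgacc

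CCAAT was present in all 5 members with a promoter (5 of their 6 promoters), and in 33.9% of all 32851 promoters over the same length. It was also present in all 10 genes from squalene to cholesterol that had a promoter. It occurred 5 times in Mvk, 3 times in Hmgcs1 (1 of them before the printed stretch), 2 times each in Mvd and Idi1 and 1 time in Pmvk, in 1 of the 2 Pmvk promoters listed. The letters GGGCGG, a core to which SP1 binds, were present in 4 of the 5 members (4 of their 6 promoters) and in 32.7% of all promoters. They were present in all 10 of those genes from squalene to cholesterol. The sterol element TCACNCCAC was matched in Hmgcs1, from 137 to 129 bases before the start, and in 1.05% of all promoters. It was matched in 0 of the 10 genes from squalene to cholesterol. The shorter form CACNCCAC, which is part of it, gave no further member and was present in 5.29% of all promoters. No match says only that these letters are not in the window.

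Values are log2 intensities, so that a difference of 1 is a doubling, and the authors appear to have normalised the 2 tissues separately: array medians over all probe sets were 6.07 to 6.24 in total liver and 4.56 to 4.71 in hepatocytes. Levels were therefore set side by side between tissues only as percentiles within an array. A background line was drawn at the 95th percentile of the negative control probe sets of each array, at 9.96 to 10.23 in total liver and 6.84 to 8.01 in hepatocytes. It is a high line, with most tested probe sets under it on CDAA liver replicate 4. There Idi1 at 10.08 was under the line of 10.09, though at the percentile 78.4 of its array. Lying under the line therefore does not show that an RNA was absent. With 3 or 4 arrays a group, their number limits the precision. The root mean square deviation of an array from its group over probe sets was 0.229 to 0.320 in total liver and 0.363 to 0.594 in hepatocytes.

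The hepatocyte preparations on CDAA stood apart from their labels, as they carried markers of other liver cells. The mean log2 level of 8 Kupffer cell markers lay between 11.03 and 12.70 in CDAA hepatocytes and between 5.25 and 5.68 in CSAA hepatocytes, and 8 of 8 rose (limma, adjusted p under 0.05, against 11.0% of all probe sets called higher). All 7 measured recruited macrophage, all 8 endothelial and all 8 stellate cell markers also rose there, as did 4 of 5 neutrophil, 1 of 5 T and NK cell and 1 of 3 B cell markers, but no cholangiocyte marker (0 of 5, 1 with an unadjusted p under 0.05 in limma). With the hepatocyte arrays alone in the fit (6.53% of all probe sets called higher) these counts were the same except for B cells, with 0 of 3 called and 1 with an unadjusted p under 0.05. The 12 hepatocyte markers were above background in every group, with means of 16.22 to 16.87 in CDAA hepatocytes and 17.23 to 17.61 in CSAA hepatocytes. Of these 12, 4 fell in CDAA hepatocytes: Agxt (-3.11 ± 0.39, log2 fold change ± SE), Hnf4a (-1.72 ± 0.46), Cps1 (-1.35 ± 0.27) and F2 (-1.16 ± 0.21). With the hepatocyte arrays alone, 2 of 12 fell, Agxt and F2. Albumin did not pass there (-0.01 ± 0.16), at 19.81 in CDAA hepatocytes and 19.82 in CSAA hepatocytes, near the top of the scale.

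In total liver the Kupffer marker mean was 10.78 to 11.52 on CDAA and 9.03 to 9.94 on CSAA, with 4 of 8 higher (6.73% of all probe sets were called higher), and 7 of 7 recruited macrophage markers rose. Hepatocyte marker means were 16.50 to 16.77 on CDAA and 17.00 to 17.06 on CSAA. Of the 12, 1 was lower, Agxt (-1.82 ± 0.34), where 3.54% of all probe sets were called lower. Neutrophil markers were 3 of 5 higher and stellate markers 5 of 8 higher, and 1 of 8 endothelial and 1 of 5 T and NK cell markers were higher. No cholangiocyte (0 of 5) or B cell marker (0 of 3) passed in total liver, and none had an unadjusted p under 0.05 (limma). With the liver arrays alone in the fit, 2603 of all 22206 probe sets were called higher and 2010 lower (9.05%). There 7 of 8 Kupffer, 6 of 8 stellate and 2 of 8 endothelial markers were higher and 3 of 12 hepatocyte markers lower. The other counts were the same. In bulk RNA, fewer hepatocytes and less RNA per hepatocyte cannot be told apart, and the part of other cells' RNA in the falls below was not tested, though the falls are also given on a scale set by hepatocyte markers.

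**Figure D1:**
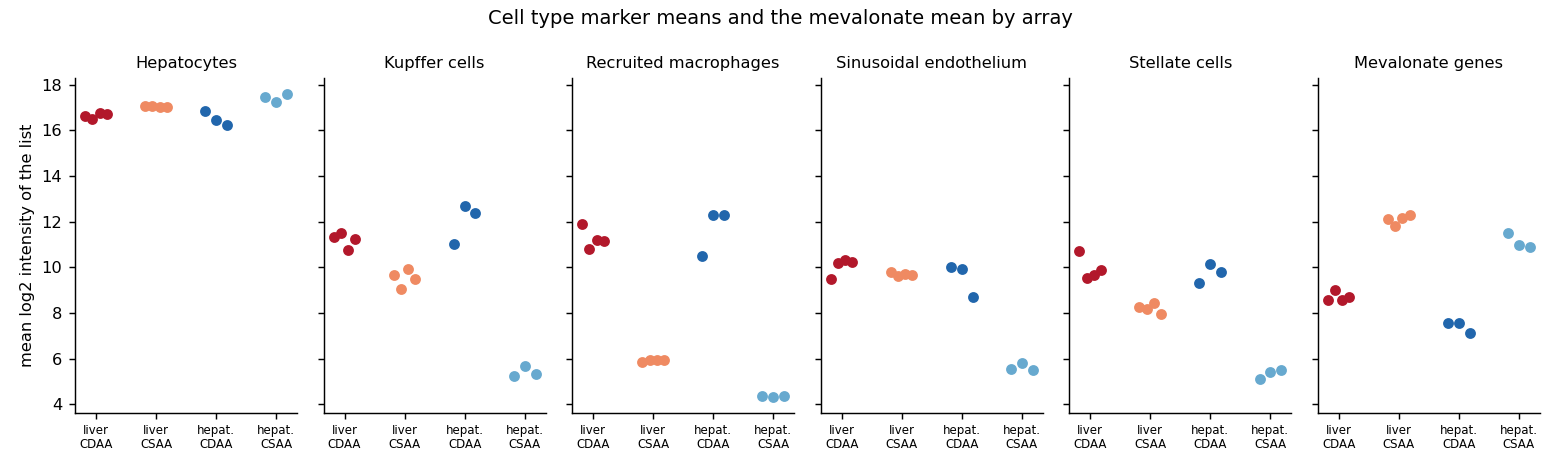
Mean log2 intensity per array (points) of 5 cell type marker lists and of the 7 mevalonate genes in total liver and hepatocytes, CDAA left of CSAA. In hepatocytes the Kupffer mean lay between 11.03 and 12.70 on CDAA and between 5.25 and 5.68 on CSAA, whereas the mevalonate mean lay between 7.12 and 7.57 on CDAA and between 10.88 and 11.48 on CSAA.

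The main comparison asked how the 7 enzymes differed between the diets in each tissue. All 7 fell on CDAA in total liver (3.54% of all probe sets were called lower), with a median log2 fold change of -3.11 against -0.09 over all probe sets. All 7 also fell in hepatocytes on the deposited scale (7.74% called lower), with a median of -3.40 against -0.13, although Mvk did not pass there on a scale set by hepatocyte markers. Both counts include Mvk, and that of total liver Mvd, which passed the test although all their arrays there lay under the background line. With the hepatocyte arrays alone in the fit all 7 were still called, at adjusted p = 0.000313 to 0.0113 (limma), where 1.95% of all probe sets were called lower. The SE and adjusted p given per gene below come from the spread shared by both tissues. With the hepatocyte arrays alone the SE was 0.66 for Hmgcs1 (0.48 with the shared spread) and 0.30 for Mvk (0.37). Every CDAA array lay under every CSAA array for 7 of 7 genes in total liver (12.0% of all probe sets) and for 7 of 7 in hepatocytes (14.2%). Arrays were also centred on the median level of the 12 hepatocyte markers, a choice made after the data were seen. That median rests on the middle markers, by group means Tat and Cps1 in total liver and Tat and F2 in hepatocytes. On this scale 7 of 7 in total liver and 6 of 7 in hepatocytes were still called lower, Mvk excepted (-0.72 ± 0.47, limma, adjusted p = 0.195). This centring moved the median of all probe sets from -0.09 to -0.23 in total liver and from -0.13 to 0.90 in hepatocytes. In total liver it thus enlarged the falls, so it does not allow there for less hepatocyte RNA. Tat was higher on CDAA in total liver (0.43 ± 0.43), whereas the median difference of the 12 markers was -0.28. Centred on Agxt and Hnf4a alone, the hepatocyte markers under a level of 16, 6 of 7 in total liver and 4 of 7 in hepatocytes were still called lower. The exceptions were Mvk in total liver (-0.71, limma, adjusted p = 0.127) and, in hepatocytes, Pmvk (-0.34), Mvd (-0.89) and Mvk, whose difference turned to 0.67 without passing (adjusted p = 0.192). That centring moved the median of all probe sets to 1.08 in total liver and 2.29 in hepatocytes.

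**Figure D2:**
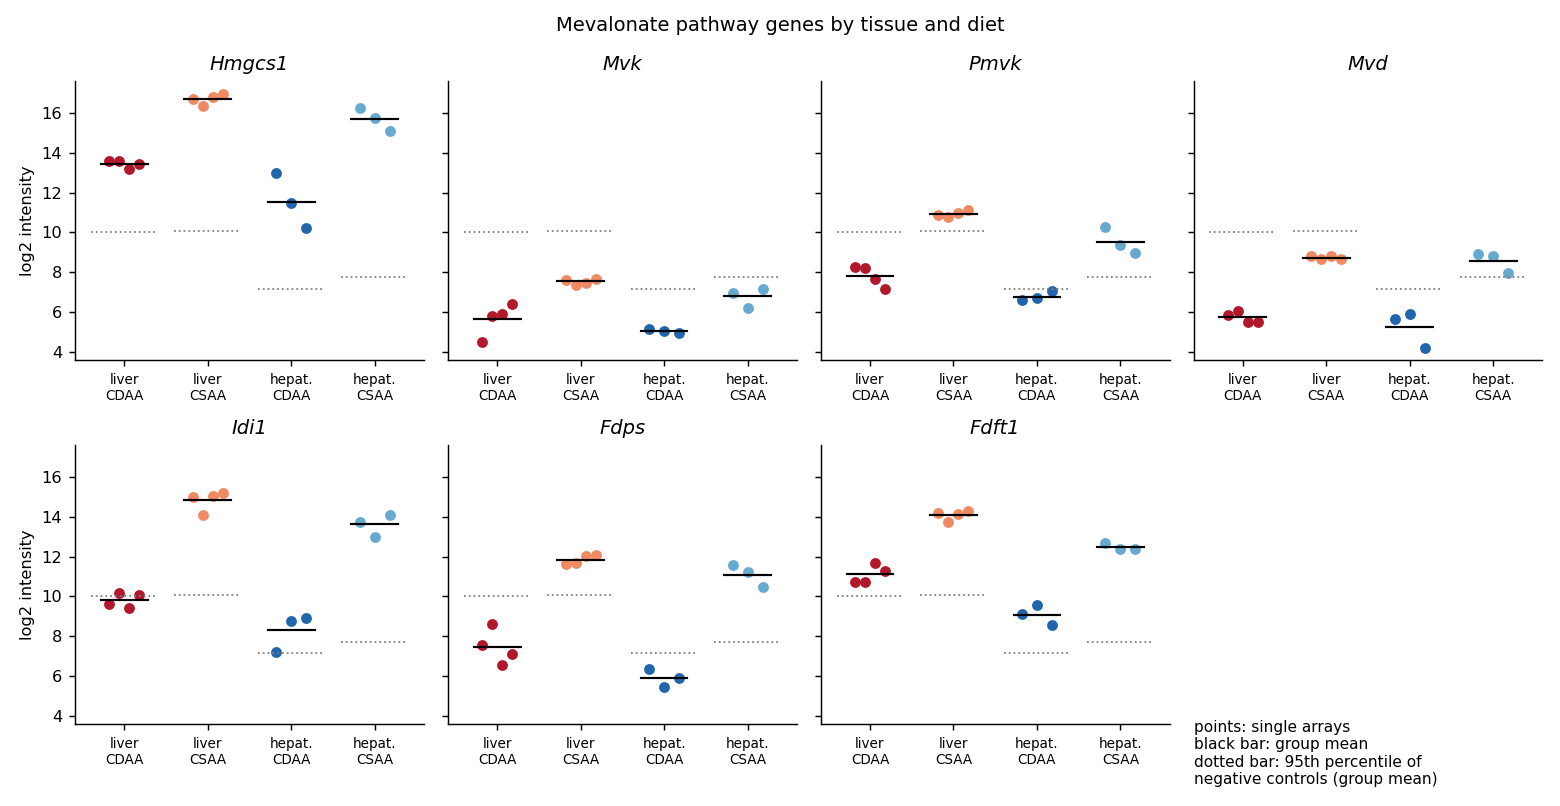
Log2 intensity of the 7 genes on each array (points) with group means (black bars) and the mean background line (dotted), in total liver and hepatocytes with CDAA left of CSAA. On this deposited scale the CDAA arrays lie below the CSAA arrays of the same tissue in all 7 panels, and Mvk lies under its background line in all 4 groups.

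Hmgcs1, the cytosolic HMG-CoA synthase (probe set TC1300001353.mm.2), had 13.59, 13.60, 13.16 and 13.45 in total liver on CDAA, against 16.68, 16.34, 16.77 and 16.95 on CSAA. In hepatocytes it had 12.96, 11.46 and 10.22 on CDAA, against 16.22, 15.75 and 15.11 on CSAA. The groups did not overlap in either tissue, and the CDAA hepatocyte arrays were spread over more than 2 log2 units, with replicate 1 the highest and replicate 3 the lowest. The fall was -3.24 ± 0.42 in total liver (9.44-fold lower, limma, adjusted p = 0.00011) and -4.15 ± 0.48 in hepatocytes (17.7-fold lower, adjusted p = 1.21e-05). Within its array Hmgcs1 stood at the percentile 93.6 to 95.1 in total liver on CDAA and at 99.0 to 99.3 on CSAA.

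The kinases and the decarboxylase that follow mevalonate lay in part under the background line. Mvk, mevalonate kinase (TC0500001225.mm.2), had 4.51, 5.83, 5.90 and 6.39 in total liver on CDAA, against 7.63, 7.38, 7.49 and 7.66 on CSAA. Its hepatocyte values were 5.15, 5.05 and 4.95 on CDAA, against 6.98, 6.23 and 7.17 on CSAA. The groups were apart in both tissues, but every array lay under the background line, so no fold is given. The fitted differences were -1.88 ± 0.32 in total liver (limma, adjusted p = 0.00109) and -1.74 ± 0.37 in hepatocytes (adjusted p = 0.0031). In total liver, replicate 1 on CDAA was the lowest array.

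Pmvk, phosphomevalonate kinase (TC0300000766.mm.2), had 8.28, 8.21, 7.64 and 7.16 in total liver on CDAA, against 10.89, 10.76, 10.96 and 11.12 on CSAA. In hepatocytes it had 6.60, 6.69 and 7.04 on CDAA, against 10.27, 9.35 and 8.96 on CSAA. All CDAA arrays lay under the background line and all CSAA arrays above it. The fitted differences of -3.11 ± 0.29 in total liver (limma, adjusted p = 4.63e-06) and -2.75 ± 0.33 in hepatocytes (adjusted p = 1.64e-05) therefore include values below background. With CDAA set at the line, the falls were at least 0.90 and 2.36 on the log2 scale (bounds of -0.90 and -2.36).

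Mvd, mevalonate diphosphate decarboxylase (TC0800003069.mm.2), had 5.87, 6.04, 5.50 and 5.53 in total liver on CDAA, against 8.79, 8.68, 8.80 and 8.68 on CSAA. Hepatocyte arrays gave 5.64, 5.90 and 4.22 on CDAA, against 8.91, 8.82 and 7.95 on CSAA. The CSAA arrays of total liver lay close together, yet all 8 liver arrays were under the background line, so no fold is given there. The fitted differences were -3.00 ± 0.31 in total liver (limma, adjusted p = 1.5e-05) and -3.30 ± 0.36 in hepatocytes (adjusted p = 6.67e-06, bound -1.39).

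Idi1, the isopentenyl diphosphate isomerase (TC1300000045.mm.2), had 9.60, 10.16, 9.44 and 10.08 in total liver on CDAA, against 15.00, 14.08, 15.05 and 15.18 on CSAA. In hepatocytes it had 7.20, 8.78 and 8.94 on CDAA, against 13.73, 13.00 and 14.10 on CSAA. The diets were far apart in both tissues, and of the CDAA arrays 1 of 4 liver and 3 of 3 hepatocyte arrays were above the background line. The fitted fall was -5.01 ± 0.37 in total liver (limma, adjusted p = 7.34e-07), where no fold is given since 3 of 4 CDAA arrays lay under the line. In hepatocytes it was -5.30 ± 0.43 (39.5-fold lower, adjusted p = 2.8e-07). Replicate 2 on CSAA was the lowest control liver, and replicate 1 the lowest CDAA hepatocyte array.

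Fdps, farnesyl diphosphate synthase (TC0300002334.mm.2), had 7.55, 8.60, 6.59 and 7.14 in total liver on CDAA, against 11.61, 11.65, 12.02 and 12.05 on CSAA. Hepatocytes gave 6.35, 5.45 and 5.89 on CDAA, against 11.59, 11.22 and 10.45 on CSAA. All CDAA arrays were under the background line and all CSAA arrays above it. The fitted falls were -4.37 ± 0.36 in total liver (limma, adjusted p = 1.99e-06, bound -1.80) and -5.19 ± 0.42 in hepatocytes (adjusted p = 2.8e-07, bound -3.93).

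Fdft1, squalene synthase (TC1400002215.mm.2), had 10.72, 10.74, 11.69 and 11.26 in total liver on CDAA, against 14.19, 13.75, 14.13 and 14.29 on CSAA. In hepatocytes it had 9.11, 9.59 and 8.58 on CDAA, against 12.68, 12.39 and 12.40 on CSAA. The groups did not overlap, and with Hmgcs1 it was the member whose arrays were above the background line in all 4 groups. It was 7.94-fold lower in total liver (-2.99 ± 0.25, limma, adjusted p = 2.33e-06) and 10.6-fold lower in hepatocytes (-3.40 ± 0.29, adjusted p = 5.48e-07).

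The fitted falls, taken as a description, had the order Idi1, Fdps, Hmgcs1, Pmvk, Mvd, Fdft1 and Mvk from the largest in total liver, and Idi1, Fdps, Hmgcs1, Fdft1, Mvd, Pmvk and Mvk in hepatocytes. For 4 of 7 members in each tissue the CDAA arrays lay wholly under the background line, and different probe sets may respond with different slopes, so the sizes of these falls are not ranked here. Among neighbours in this order, Hmgcs1 and Fdft1 were above the line on every hepatocyte array. There Hmgcs1 fell by 0.75 ± 0.75 more than Fdft1, a difference within 2 SE, computed from the difference of both genes on each array.

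**Figure D3:**
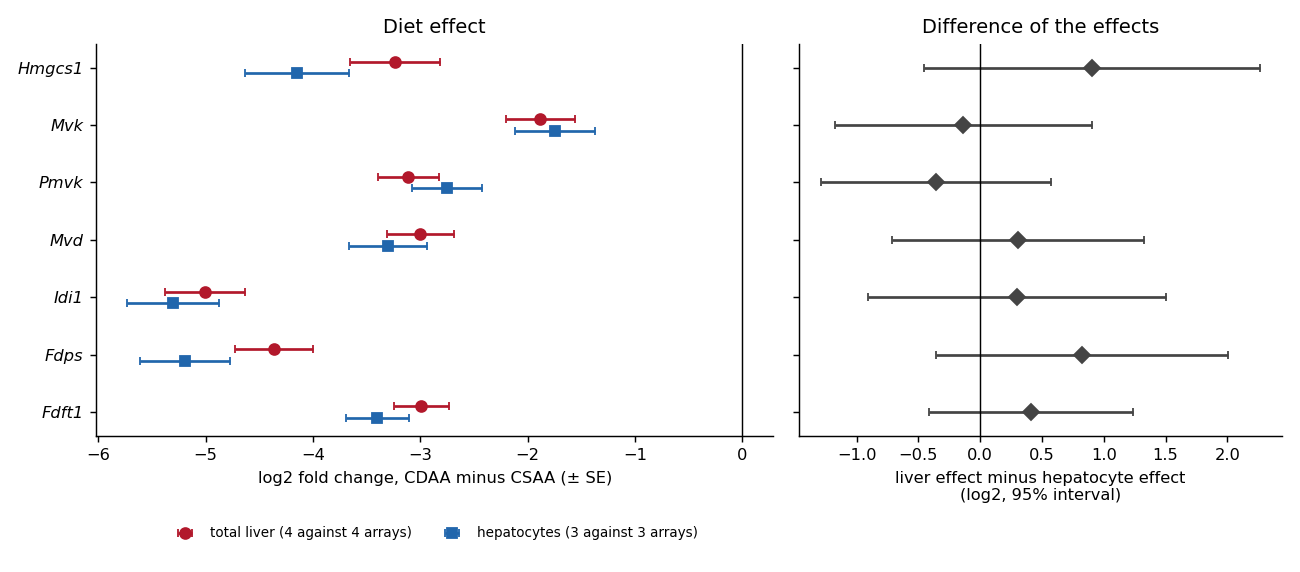
Left, log2 fold change (CDAA minus CSAA, ± SE) of the 7 genes in total liver and hepatocytes; right, the liver effect minus the hepatocyte effect with its 95% interval. All 14 fitted effects lie left of 0, 4 of the 7 genes in each tissue with their CDAA arrays under background, and all 7 intervals of the difference include 0.

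Whether the diet effect differed between total liver and hepatocytes was tested as the difference of the effects. It passed for 0 of 7 members, none of which had an unadjusted p under 0.05 in limma, while 2.36% of all probe sets were called lower and 0.212% higher in this comparison. The estimates ran from -0.36 ± 0.44 for Pmvk (95% interval -1.29 to 0.57) to 0.91 ± 0.64 for Hmgcs1 (-0.45 to 2.27), a positive value meaning a smaller fall in total liver. Fdps had 0.83 ± 0.56 (-0.36 to 2.01) and Fdft1 0.41 ± 0.39 (-0.41 to 1.23). The intervals reach beyond 1 log2 unit, in one direction or the other, in 7 of the 7 genes. The fitted fall was larger in hepatocytes for 5 members and larger in total liver for Mvk and Pmvk, but this direction depended on the scale, with no difference called on any of the following 3. On both scales set by hepatocyte markers it was larger in total liver for all 7. These scales moved the median difference over all probe sets from 0.02 to -1.22 (Agxt and Hnf4a) and to -1.14 (the median of all 12 markers). That shift is larger than the highest of the 7 estimates, so it alone turned the sign of the 5 positive ones. Mvk and Pmvk were negative already on the deposited scale. After joint quantile normalisation of both tissues it was larger in total liver for Hmgcs1 (-0.16, total liver minus hepatocytes), Idi1 (-0.80), Fdft1 (-0.26) and Pmvk (-0.55), and larger in hepatocytes for Mvk (0.11), Mvd (0.53) and Fdps (0.40). Without replicate 1 of the CDAA hepatocytes, Hmgcs1 passed, with a difference of 1.61 (limma, adjusted p = 0.031). That array had the lowest Kupffer marker mean of its group (11.03, against 12.70 and 12.39) and the highest Hmgcs1. It also had the highest endothelial marker mean (10.04, against 9.94 and 8.70) and the lowest Idi1 (7.20, against 8.78 and 8.94). The part of other cells' RNA in this was not tested.

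Within their arrays, the members kept the following places. Idi1 stood at the percentile 74.0 to 79.2 of the tested probe sets in total liver on CDAA, against 96.2 to 97.9 on CSAA, and at 68.1 to 82.3 in hepatocytes on CDAA, against 95.7 to 96.9 on CSAA. Fdps stood at 54.4 to 68.1 in total liver on CDAA, against 87.8 to 90.2 on CSAA, and at 55.0 to 61.7 in hepatocytes on CDAA, against 88.8 to 92.4 on CSAA. The CDAA places of both genes thus overlapped between the tissues. Fdft1 stood at 82.6 to 88.2 in total liver on CDAA, against 95.4 to 96.6 on CSAA, and at 80.3 to 83.9 in hepatocytes on CDAA, against 94.2 to 94.9 on CSAA. Hmgcs1 stood at 88.2 to 95.3 in hepatocytes on CDAA, against 97.9 to 98.8 on CSAA. In total liver on CDAA, Pmvk stood at 58.4 to 65.6, Mvd at 45.9 to 50.2 and Mvk at 35.1 to 52.7. On CSAA they stood there at 83.8 to 85.8, 70.1 to 70.5 and 61.6 to 63.4. In hepatocytes on CDAA, Pmvk stood at 63.5 to 69.5, Mvd at 41.6 to 58.9 and Mvk at 51.2 to 52.2. On CSAA they stood there at 82.2 to 88.2, 76.1 to 82.1 and 64.7 to 71.1.

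With diet and tissue removed, pairs of members correlated in both directions. Over 14 arrays, each gene taken as its deviation from its group mean, 12 of 21 pairs correlated above 0, from -0.53 (Hmgcs1 and Idi1) to 0.76 (Hmgcs1 and Mvd), with a median of 0.13. Pmvk and Fdps had 0.63 and Fdps and Fdft1 had -0.45. These points share arrays and few degrees of freedom. The mean of the 7 genes was the lowest of the CSAA livers in replicate 2 (11.81, against 12.11 to 12.28), where 7 of 7 members lay below their group mean, and the highest of the CDAA livers in replicate 2 (9.03, against 8.56 to 8.72).

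The steps before and after the pathway were read from lists written with earlier results of these data known. Of the enzymes from squalene to cholesterol, 9 of 10 measured fell in total liver (3.54% of all probe sets) and 9 of 10 in hepatocytes (7.74%). Their medians were -2.74 and -3.41, against -3.11 and -3.40 for the mevalonate members. With the arrays of each tissue alone in the fit, 9 of 10 fell in total liver (9.05% of all probe sets called lower) and 9 of 10 in hepatocytes (1.95%). Sqle, squalene epoxidase, had 5.94, 6.66, 5.09 and 5.39 in total liver on CDAA, against 11.59, 11.06, 11.79 and 11.83 on CSAA. Its groups were far apart, and its fitted fall was -5.80 ± 0.31 (bound -1.53) in total liver and -5.77 ± 0.36 (bound -2.94) in hepatocytes. Nsdhl, a sterol dehydrogenase, had -4.23 ± 0.24 in total liver and -4.13 ± 0.28 in hepatocytes. Cyp51, the lanosterol demethylase, had -4.23 ± 0.38 and -5.00 ± 0.44, and Hsd17b7, a ketosteroid reductase, -2.47 ± 0.22 and -3.19 ± 0.25. The gene that did not pass was Lbr, a sterol reductase that is also a receptor of the nuclear envelope and lay under the background line on every liver array, with -0.37 ± 0.16 (adjusted p = 0.192) and 0.42 ± 0.19 (adjusted p = 0.15). It was named after its value was seen.

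The acetyl-CoA that enters the pathway is made in the cytosol by Acly from citrate, which Slc25a1 exports from mitochondria, and by Acss2 from acetate. In total liver 2 of 4 genes of this list fell (3.54% of all probe sets were called lower). They were Acly (-2.54 ± 0.43, limma, adjusted p = 0.00109) and Acss2 (-2.41 ± 0.38, adjusted p = 0.000562). Slc25a1 had -0.73 ± 0.29 and the malic enzyme gene Me1 -0.94 ± 0.41, which did not pass. In hepatocytes 4 of 4 fell (7.74% of all probe sets), among them Acly (-3.99 ± 0.50) and Slc25a1 (-2.03 ± 0.33). With each tissue alone, 4 of 4 fell in total liver, where 9.05% of all probe sets were then called lower, and 3 of 4 in hepatocytes (1.95%), Me1 excepted.

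Of 5 measured regulators, 1 fell in total liver (3.54% of all probe sets were called lower) and 3 in hepatocytes (7.74%). Insig1, which retains SCAP and is itself a known SREBP target, had 11.86, 12.67, 11.86 and 12.33 in total liver on CDAA, against 15.14, 15.46, 14.97 and 15.06 on CSAA. The groups were well apart, and the fall was -2.98 ± 0.27 (limma, adjusted p = 4.26e-06) in total liver and -3.67 ± 0.31 (adjusted p = 4.86e-07) in hepatocytes. Srebf2, the gene of SREBP2, had -1.03 ± 0.34 in total liver (adjusted p = 0.0733) and fell by 1.64 ± 0.40 in hepatocytes. Scap had -1.32 ± 0.57 in total liver (adjusted p = 0.171) and fell by 3.18 ± 0.66 in hepatocytes. Mbtps1, the protease that cleaves SREBP, passed in neither tissue (-0.32 ± 0.31 and -0.94 ± 0.36). With each tissue alone in the fit, Srebf2 and Scap passed in total liver with Insig1 (9.05% of all probe sets called lower). In hepatocytes 1 of 5, Insig1, then passed (1.95%). The difference of effects between tissues passed for 0 of the 5 (limma), and 1 of them, Scap, had an unadjusted p under 0.05 (1.86 ± 0.87, adjusted p = 0.421).

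The next list held enzymes that draw on the pathway's isoprenoids for ubiquinone, dolichol and protein prenylation. It also held Icmt, Rce1 and Zmpste24, which process proteins already prenylated. None passed in total liver, with 0 of 12 measured called and a median of 0.10. Of these, 1, Icmt, had an unadjusted p under 0.05 (limma), and 8 of the 12, Fnta among them, lay under the background line on every liver array. Of the genes with the smallest p, the prenylcysteine methyltransferase gene Icmt had -0.53 ± 0.25, the prenyltransferase subunit gene Fnta -0.48 ± 0.23, the prenyl protease gene Rce1 0.43 ± 0.27 and Pdss2, which makes the ubiquinone tail, -0.32 ± 0.20. With the liver arrays alone in the fit, Fnta passed, where 9.05% of all probe sets were called lower. In hepatocytes 2 of 12 fell (7.74% of all probe sets were called lower). They were Rabggta (-1.01 ± 0.24), a subunit of the transferase that prenylates Rab proteins, and Icmt (-0.95 ± 0.28). With the hepatocyte arrays alone 0 of 12 passed, 2 having an unadjusted p under 0.05. Ggps1, which extends farnesyl diphosphate and so uses the product of Fdps, had 0.09 ± 0.25 in total liver and 0.60 ± 0.29 in hepatocytes, neither past the threshold and named after their values were seen.

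Paralogs and ketone body enzymes that share substrates with the pathway did not pass in total liver, with 0 of 4 called and a median of -0.09, equal to that of all probe sets. None of the 4 had an unadjusted p under 0.05 (limma), and with the liver arrays alone 0 of 4 passed and 1 did so unadjusted. Acat1, the mitochondrial thiolase, had -0.41 ± 0.31, the hydroxybutyrate dehydrogenase gene Bdh1 0.24 ± 0.37, and the isomerase paralog Idi2, dim in all groups, -0.11 ± 0.17. Acat3, a close relative of Acat2, had 13.79, 13.62, 13.86 and 13.42 in total liver on CDAA, against 13.85, 13.81, 13.67 and 13.65 on CSAA. These liver groups overlapped, and the difference was -0.07 ± 0.22 (limma, adjusted p = 0.884). In hepatocytes 1 of 4, Acat3, fell by 1.01 ± 0.26 (limma, adjusted p = 0.0105), where 7.74% of all probe sets were called lower. With the hepatocyte arrays alone 0 of 4 passed and 1 had an unadjusted p under 0.05. Whether the Acat3 probe set also takes up Acat2 RNA was not tested.

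**Figure D4:**
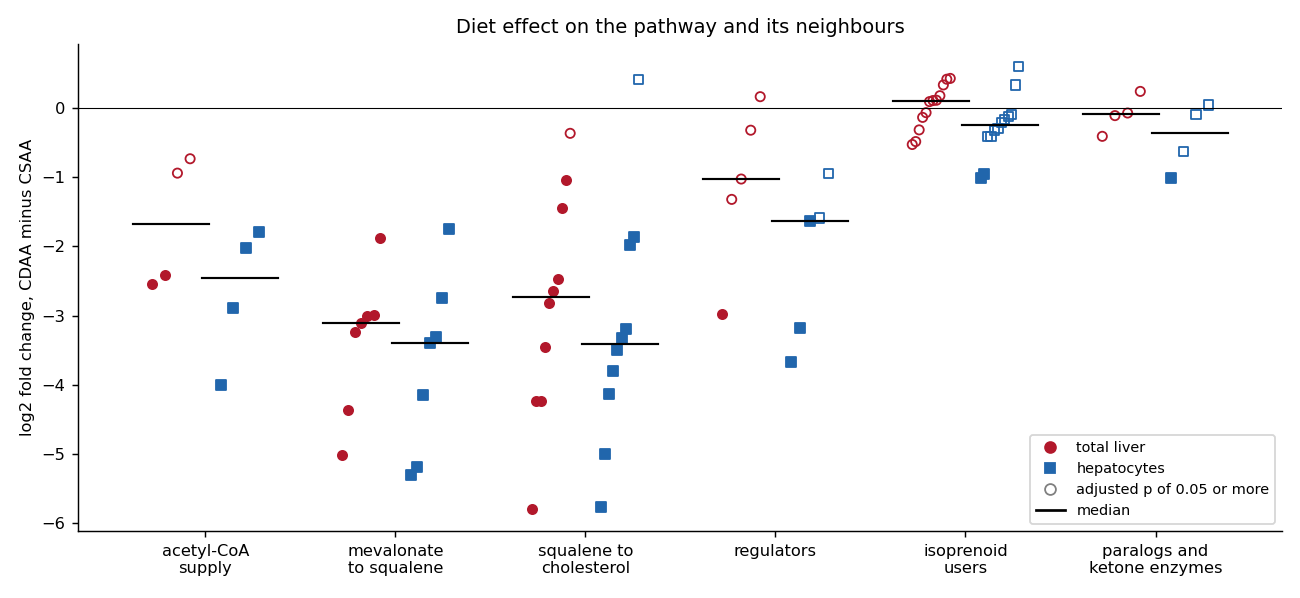
Log2 fold change (CDAA minus CSAA) of every measured gene in 6 lists, total liver left of hepatocytes, filled where the limma adjusted p was under 0.05, with list medians as bars. On the deposited scale the 7 mevalonate genes are all filled in both tissues. The 12 genes labelled isoprenoid users, some of which process prenylated proteins, lie near 0 in total liver, with a median of 0.10.

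The genes most like the members were sought among 18498 genes by Pearson correlation over the 14 arrays with the mean of the 7 members, each gene centred on the mean of its tissue's diet means. Sqle (0.994) and Nsdhl (0.993) came first, followed by Hsd3b5 (0.985), a steroid dehydrogenase typical of male liver, Hsd17b7 (0.983), Rdh11 (0.980), a retinol dehydrogenase, Cyp7b1 (0.979), the oxysterol hydroxylase, Insig1 (0.979), Scnn1a (0.977), a sodium channel subunit, Gramd3 (0.976) and Echdc1 (0.976), a decarboxylase of the cytosol. The measure follows the diet difference in both tissues, and 4 of the 10 belong to the sterol lists. In total liver the fitted falls ran from -1.43 ± 0.19 for Gramd3 to -9.97 ± 0.51 for Hsd3b5 (bound -7.22). The members themselves correlated with the mean of the other members at 0.895 for Mvk to 0.979 for Fdps.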

How the data were processed

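RNA of 14 samples was measured on Clariom S mouse arrays, 1 array per sample, with different RNA kits for the tissues. RMA, named in the submitters' processing notes without a version, gave the deposited log2 intensities. Control probe sets (6640 of 28846) were left out and 22206 were tested, of which 19572 had 1 gene symbol in GEO's platform annotation and 2634 had none. No coordinates of probe sets are given. With limma 3.58.1 (R 4.3.3), 1 model with 4 group means was fitted over the 14 arrays (10 residual and 5.11 prior degrees of freedom), and the two-sided moderated tests of 3 contrasts were adjusted by Benjamini-Hochberg over all tested probe sets, with a threshold of 0.05. p-values measure the spread between these samples. A fold against a group wholly under the 95th percentile of the 5222 negative control probe sets is given as a bound. The code was tested on simulated data, in which hepatocyte calls under the spread shared by both tissues held too many false ones, so counts in hepatocytes are also given with those arrays alone.

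The members and lists were chosen with earlier results of these data known. All 7 measured members are named, with up to 4 genes per list (the smallest p in total liver), the 10 genes most like them, and exceptions stated in the text. Alternatives were trend and robust moderation, each tissue alone, a spread per tissue, leaving out the dimmest 30%, joint quantile normalisation, centring on array medians or hepatocyte markers, array weights, the replicate block, leaving out each array, and averaging probe sets. The replicate number was not taken as a pairing, since deviations from the group means correlated between same-numbered arrays at -0.13 to 0.02 in total liver and at 0.35, -0.21 and 0.26 in hepatocytes.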

Additional observations from a re-analysis of the deposited data

Results flagged for a closer look

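Among the 14 groups of 4 liver arrays that the 7 members form, 1 held an array far from the others. Idi1 in total liver on CSAA had 14.08 in replicate 2, against 15.00, 15.05 and 15.18 in the other CSAA arrays, a gap that took up 0.836 of the group's range. Chance alone marks about 1 in 20 such groups. All 7 members lay below their group mean on that array, whose mean over the members was 11.81, against 12.11 to 12.28. Without it, the Idi1 difference in total liver was -5.25 (limma). Groups of 3 hepatocyte arrays were not examined in this way.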

How the results depend on the processing

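The 7 members kept direction and call in 174 of 175 values in total liver and in 171 of 175 in hepatocytes, over 25 alternatives. Some alternatives leave a member's estimate as it was, so these counts bear there on the call alone. They are trend and robust moderation, each tissue alone, a spread per tissue, leaving out the dimmest probe sets and the replicate block. Averaging probe sets and leaving out an array of the other tissue also left the estimates unchanged. The exceptions to direction or call arose on hepatocyte marker scalings. Centred on Agxt and Hnf4a, Mvk had -0.71 in total liver and turned to 0.67 in hepatocytes, where Pmvk (-0.34) and Mvd (-0.89) lost their call and 4 of 7 members stayed called. That scaling called 16001 probe sets in total liver (96 lower), 21624 in hepatocytes (39 lower) and 2830 for the difference of effects (2829 lower). Centred on the median of all 12 markers, chosen after seeing the data, the counts were 1034, 7297 (205 lower) and 2077 (2076 lower). That median rests on the middle markers, and Mvk in hepatocytes was no longer called on this scale. Centred on array medians, 1650 lower stood against 1265 higher in total liver (785 against 1494 as deposited) and 3244 against 2149 in hepatocytes (1719 against 2439). With each tissue alone 4613 and 1883 probe sets were called, with a spread per tissue 4604 and 2529, and with array weights 4992, 6806 and, for the difference, 2725, against 2279, 4158 and 570. Leaving out 1 array gave 1510 (without CDAA liver replicate 1) to 3115 calls in total liver and 396 to 2265 (without CDAA hepatocyte replicate 1) for the difference. Members that differed between tissues numbered 0 to 1, the 1 being Hmgcs1 without CDAA hepatocyte replicate 1. The difference of effects changed sign, without a call, in 5 of 24 alternatives for Idi1, 4 for Mvd, 3 each for Hmgcs1, Fdft1 and Mvk, 2 for Fdps and 0 for Pmvk. These were both hepatocyte marker scalings (Hmgcs1, Fdps, Fdft1, Mvd, Idi1), joint quantile normalisation (Hmgcs1, Mvk, Idi1, Fdft1), array weights (Mvd, Idi1) and leaving out CDAA hepatocyte replicate 1 (Idi1) or 3 (Mvd), CSAA hepatocyte replicate 2 (Mvk) or CDAA liver replicate 1 (Mvk). The sign could not change under trend and robust moderation, a spread per tissue, leaving out the dimmest probe sets, the replicate block or averaging probe sets. The replicate block left all 7 members called in each tissue and called 2215 probe sets in total liver and 4285 in hepatocytes. The causes were not tested beyond the construction of each alternative. Mvk, and Mvd in liver, lay under the background line, so no fold is given for them.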
